A study of Arabidopsis thaliana with 41 samples.

Results

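Ag-0 is a natural accession, a wild-collected inbred line, of Arabidopsis thaliana, and its rosette leaves were compared after slow soil drying and under continued watering. The arrays were chosen by their accession label: 5 of the 41 arrays of the series carry Ag-0, of which 2 are dry (replicates 2 and 3) and 3 are wet (replicates 1, 2 and 3), and each measured 21164 loci. Dry pots were brought down in daily steps to about 50% of the available water on day 5, and wet pots were weighed in the same way but kept near 90%. Both groups grew 1 plant to a pot in porous ceramic medium with a 10 h photoperiod and complete nutrient solution, and received no other treatment. The other 6 accessions (Ull2-5, Tamm-2, Omo2-3, Got-22, Eden-1 and Bil-5) had 3 dry and 3 wet arrays each, 36 in all. They entered the estimate of the spread and 1 comparison. The series text calls the replicates biological. Neither leaf age nor the number of plants behind an array is stated, so p-values measure the spread between these arrays.

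When soil dries, leaves make abscisic acid, whose receptors (the PYR/PYL proteins) bind clade A protein phosphatases 2C and so free SnRK2 kinases such as OST1 to act on transcription factors and guard cell channels. Growth slows early in mild drying, often before photosynthesis falls, and carbohydrate can then build up as starch and sugars. Lipid transfer proteins carry lipids, among them those of the cuticle. Aquaporins conduct water across membranes, and core histones are made mostly in cells that copy their DNA.

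Every value below is the deposited log2 signal of 1 locus, so that a difference of 1 is a doubling. Levels are given for dry replicates 2 and 3 and then wet replicates 1, 2 and 3 unless stated, and a change is the dry mean minus the wet mean with its standard error (±) from limma, over 2 dry and 3 wet arrays. The p beside a change is limma's, adjusted over all loci. Median signals of the 5 arrays lay between 5.70 and 5.74, the 2 dry arrays correlated at 0.983 and pairs of wet arrays at 0.985 to 0.987, and none of the 3 arrays of low quality weight in the series was an Ag-0 array. Deviations of the 2 dry arrays from their mean mirror each other, so both have the same weight (0.94), which cannot set them apart. The leaf label was borne out by the photosynthesis genes: the mean level of the 33 measured members lay between 12.12 and 12.41 on the dry arrays and between 12.15 and 12.45 on the wet arrays. The mean level of the 5 flower markers lay between 3.99 and 4.07 on the dry arrays and between 3.93 and 4.09 on the wet arrays, and all were at the low end of the table (below 4.40, the level under which 25% of loci lie) in both groups. Of the 9 root markers, whose mean lay between 4.39 and 4.54 on the dry arrays and between 4.50 and 4.65 on the wet arrays, PYK10, a root beta-glucosidase, read 5.99, 4.68 and 4.03 on the wet arrays and 4.01 and 4.08 on the dry arrays. Only wet replicate 1 and, less so, wet replicate 2 were above the low end for PYK10; the part of root RNA in the results was not tested. Because whole leaves were measured, fewer cells of a type and less RNA per cell cannot be told apart.

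Drying in Ag-0 raised the lipid transfer genes LTP3 and LTP4, the sucrose phosphate synthase gene ATSPS4F, the kinase gene OST1 and the chloroplast regulator GLK1. It lowered 4 genes that the gene table names as core histones, the cell wall gene FLA12 and the leaf growth gene LNG1. At an adjusted p under 0.05, 45 loci rose and 44 fell, 0.213% and 0.208% of the 21164 tested. An unadjusted p under 0.05 was reached by 2356 loci (11.1%), and that count is given below for lists without a call. These counts rest on few arrays. Without dry replicate 3 they came to 0 and 0 (1473 loci at an unadjusted p under 0.05), and without dry replicate 2 to 34 and 21. Without wet replicate 1 they came to 12 and 5, without wet replicate 2 to 21 and 32, and without wet replicate 3 to 24 and 37. Of the 89 called loci, 6 kept their call whichever array but dry replicate 3 was left out: CYP71B35, AOP1, AT4G20840, AT5G66080, AT3G53730 and AT5G25570. CYP71B35, a cytochrome P450 gene, read 5.55 and 5.74 on the dry arrays and 4.80, 4.80 and 4.68 on the wet arrays (0.89 ± 0.15, adjusted p = 0.00723), and AT3G53730 read 10.39, 10.76 and 10.28 on the wet arrays and 9.58 and 8.88 on the dry arrays (-1.24 ± 0.21, adjusted p = 0.00723). Every call named below was lost without dry replicate 3, which leaves a single dry array. Of the 89, 16 were lost whichever of the 5 arrays was left out, among them LTP4, AT3G53980, AT2G37870, OST1, ABCC2, NdhT, CLPX, AT1G04350, AT3G16670, MEE3 and BGLU33. As a description without a test, both dry arrays lay above all 3 wet arrays at 3235 loci (15.3%) and below all 3 at 2966 loci (14%). These shares, and the 11.1% at an unadjusted p under 0.05, are the background for the list counts below. For counts called in the mean of the other 6 accessions, the background is 11.4% that rose and 11.4% that fell. All lists were chosen with earlier results of these data known, so a list count set beside this background is a description.

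The largest rise among the called loci was that of LTP4, which encodes a lipid transfer protein. LTP4 read 9.70 and 10.63 on the dry arrays and 4.86, 5.72 and 4.34 on the wet arrays, a change of 5.19 ± 1.2, adjusted p = 0.0431. Its neighbour in name and sequence family, LTP3, read 9.77 and 10.31 on the dry arrays and 5.99, 4.19 and 6.37 on the wet arrays and changed by 4.52 ± 1.02, adjusted p = 0.0376. For both genes the dry arrays stood more than 3 log2 units above the highest wet array, and the wet arrays themselves spread over more than 1 unit. The 2 genes are close relatives, and whether their probes tell them apart was not tested. AT3G53980, which carries no symbol in the gene table, read 11.61 and 11.62 on the dry arrays and 6.79, 7.43 and 7.06 on the wet arrays and changed by 4.53 ± 1.01, adjusted p = 0.0354. AT2G37870, also without a symbol, read 9.34 and 9.03 on the dry arrays and 5.35, 6.04 and 5.72 on the wet arrays, a change of 3.48 ± 0.81, adjusted p = 0.0475. The dry values of AT3G53980 were nearly equal, and the gap to the highest wet array was 4.19. AT4G33550 had a gap of 3.08 (8.34 and 7.58 against 4.35, 4.21 and 4.50) but an adjusted p of 0.113 and was not called.

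LTP3 and LTP4 were the called members of the lipid transfer list. That list holds only loci with a symbol and may leave out other members of the family, also among the called loci. Of 14 measured members with a symbol, 2 rose (LTP3 and LTP4) and 0 fell by limma at the adjusted threshold. Both dry arrays were above all wet ones for 4 (28.6%, against 15.3% of all loci) and below for 3 (21.4%, against 14%), and the median change was -0.64, against 0.0022 over all loci. LTP1, an abundant epidermal family member, read 10.72 and 10.94 on the dry arrays and 12.03, 11.83 and 11.97 on the wet arrays. Both dry arrays were lowest, and the change of -1.11 ± 0.33, adjusted p = 0.124 did not pass. LTP2 read 5.89 and 7.0 on the dry arrays and 8.95, 8.52 and 7.33 on the wet arrays (-1.82 ± 0.97, adjusted p = 0.505). DIR1, a lipid transfer protein of systemic defence signalling, read 6.16 and 5.64 on the dry arrays and 7.12, 6.61 and 6.64 on the wet arrays (-0.89 ± 0.35, adjusted p = 0.28). The groups of LTP1, LTP2 and DIR1 did not overlap, in the direction opposite to LTP3 and LTP4. In the mean of the other 6 accessions the median of the list was -0.0071, with 2 members that rose and 5 that fell.

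**Figure D1:**
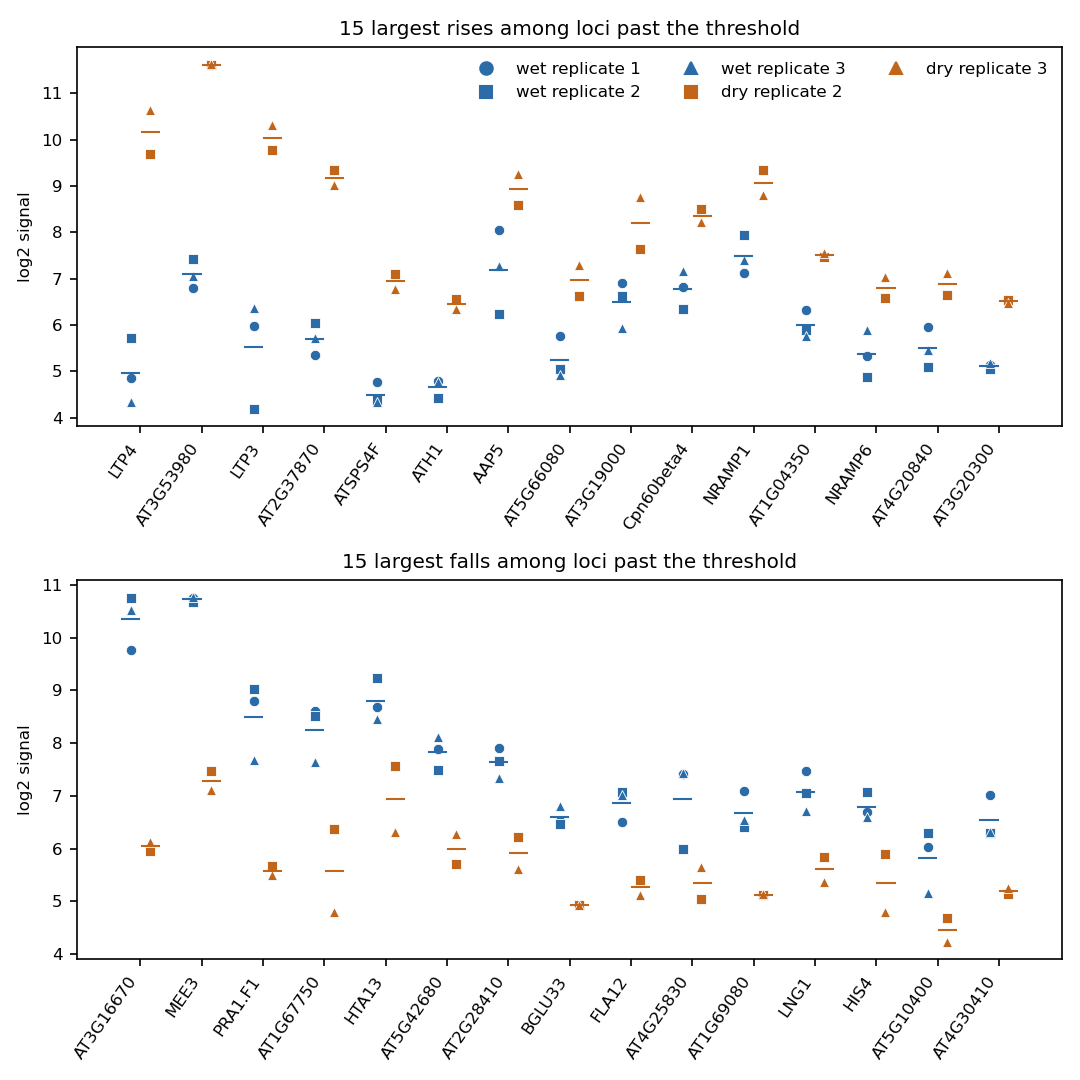
Log2 signal (vertical axis) of the 15 loci with the largest rises (upper panel) and the 15 with the largest falls (lower panel) among the 89 loci past the threshold, on the 5 Ag-0 arrays. Each symbol is 1 array (blue wet, orange dry) and short lines are group means; levels should be compared within a locus only. For all 30 loci the groups do not overlap, with LTP4 the largest rise (5.19) and AT3G16670 the largest fall (-4.30).

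Among the other large rises, ATSPS4F, a sucrose phosphate synthase gene, read 7.10 and 6.78 on the dry arrays and 4.76, 4.38 and 4.33 on the wet arrays. Its change was 2.45 ± 0.41, adjusted p = 0.00723, and the dry arrays stood 2.01 above the highest wet array. ATH1, a homeodomain transcription factor gene that acts at the shoot apex, read 6.55 and 6.35 on the dry arrays and 4.80, 4.42 and 4.77 on the wet arrays (1.79 ± 0.30, adjusted p = 0.00723), with the 3 wet values close together. AAP5, an amino acid permease gene, read 8.59 and 9.26 on the dry arrays and 8.04, 6.25 and 7.27 on the wet arrays (1.74 ± 0.38, adjusted p = 0.0326). Here wet replicate 1 came within 0.55 of the lower dry array. Cpn60beta4, a chloroplast chaperonin subunit, read 8.49 and 8.21 on the dry arrays and 6.82, 6.35 and 7.16 on the wet arrays (1.58 ± 0.28, adjusted p = 0.00867). The manganese transporter gene NRAMP1 read 9.33 and 8.81 on the dry arrays and 7.13, 7.95 and 7.41 on the wet arrays (1.58 ± 0.37, adjusted p = 0.0449). Its relative NRAMP6 read 6.58 and 7.03 on the dry arrays and 5.34, 4.88 and 5.90 on the wet arrays (1.43 ± 0.33, adjusted p = 0.043). In both NRAMP genes the 2 dry arrays were the highest. Further transporter genes among the 45 rises were ABCC2, a vacuolar ABC transporter (1.28 ± 0.29, adjusted p = 0.0375), the potassium transporter KUP3 (0.73 ± 0.17, adjusted p = 0.0387) and the organic cation transporter OCT5 (0.75 ± 0.14, adjusted p = 0.0167).

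AT5G66080, listed as APD9 of the clade D protein phosphatases 2C, read 6.63 and 7.30 on the dry arrays and 5.77, 5.06 and 4.92 on the wet arrays and changed by 1.72 ± 0.28, adjusted p = 0.00723. MDAR4, which recycles ascorbate in peroxisomes, read 10.73 and 10.81 on the dry arrays and 9.32, 9.58 and 9.41 on the wet arrays (1.34 ± 0.24, adjusted p = 0.0108). Dry and wet arrays were 1.15 apart at their nearest. AOP1, which lies beside the glucosinolate side-chain genes, read 6.15 and 6.52 on the dry arrays and 5.15, 5.12 and 4.64 on the wet arrays (1.36 ± 0.24, adjusted p = 0.00867). SFR2, a galactolipid-remodelling enzyme of the chloroplast envelope needed for freezing tolerance, changed by 1.1 ± 0.21, adjusted p = 0.0167. NdhT, a subunit of the chloroplast NDH complex, changed by 1.07 ± 0.23, adjusted p = 0.0306. CLPR1 of the plastid Clp protease (0.58 ± 0.14, adjusted p = 0.0462) and CLPX, a regulatory subunit of a Clp protease (0.74 ± 0.17, adjusted p = 0.0431), rose by less than 1 unit. AT3G19000 (1.71 ± 0.33, adjusted p = 0.0163), AT1G04350 (1.52 ± 0.35, adjusted p = 0.0462), AT4G20840 (1.39 ± 0.24, adjusted p = 0.00768) and AT3G20300 (1.38 ± 0.27, adjusted p = 0.0171) were also among the 15 largest rises and have no symbol in the gene table.

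Among genes of the abscisic acid pathway, OST1 alone was called. Of 10 measured receptor genes, 0 were called in either direction (1 at an unadjusted p under 0.05). Both dry arrays lay above all wet ones for 1 and below for 2, with a median change of -0.16. PYL6, the receptor gene with the smallest p, read 6.17 and 7.15 on the dry arrays and 7.72, 6.89 and 8.72 on the wet arrays (-1.12 ± 0.48, adjusted p = 0.351), with overlapping groups. PYL8 read 8.49 and 8.32 on the dry arrays and 9.20, 8.70 and 9.02 on the wet arrays (-0.57 ± 0.36, adjusted p = 0.608), with both dry arrays lowest, and PYR1 was higher on both, at 9.84 and 9.88 against 9.46, 9.31 and 9.73 (0.36 ± 0.40, adjusted p = 0.838). Of 18 genes whose products make, break down or carry abscisic acid, 0 were called (1 at an unadjusted p under 0.05), and 3 were above and 3 below without overlap. NCED3, the main drought-induced step of synthesis, read 4.55 and 6.04 on the dry arrays and 5.05, 4.08 and 4.60 on the wet arrays (0.72 ± 0.52, adjusted p = 0.68). Dry replicate 3 was the highest array and dry replicate 2 lay among the wet ones.

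OST1, the SnRK2 kinase of guard cell closure, read 6.86 and 7.11 on the dry arrays and 5.98, 5.57 and 5.77 on the wet arrays and rose by 1.21 ± 0.26, adjusted p = 0.0306. It was the 1 called member of the 12 clade A phosphatases 2C and SnRK2 kinases. Of these 12, 8 had both dry arrays above all wet arrays (66.7%, against 15.3% of all loci) and 0 had both below (against 14%). The median change was 0.35 in Ag-0 and 0.03 in the mean of the other 6 accessions, where 5 members rose and 2 fell. PP2CA, a phosphatase that inhibits the kinases, read 9.21 and 9.75 on the dry arrays and 8.39, 8.17 and 8.21 on the wet arrays (1.22 ± 0.29, adjusted p = 0.0533), just short of the threshold. SNRK2.3 read 9.05 and 9.37 on the dry arrays and 8.76, 8.53 and 8.18 on the wet arrays (0.72 ± 0.24, adjusted p = 0.175). HAI1, an abscisic acid-induced phosphatase, read 5.48 and 6.02 on the dry arrays and 5.29, 5.15 and 5.13 on the wet arrays (0.56 ± 0.19, adjusted p = 0.188). Dry exceeded wet on every array of these 3 genes as well, with a gap of 0.19 in HAI1.

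No classic drought-response gene was called. Of 32 measured, 0 rose and 0 fell by limma at the adjusted threshold. An unadjusted p under 0.05 was reached by 3, against 11.1% of all loci. In all 8 were higher (25%, against 15.3% of all loci) and 3 lower (9.38%, against 14%) without overlap. The median change was 0.12, and the median of dry replicate 2 minus the wet mean was -0.08 while that of dry replicate 3 was 0.33. HB-7, a drought-induced homeodomain factor, read 7.01 and 6.77 on the dry arrays and 5.81, 6.12 and 5.41 on the wet arrays (1.11 ± 0.43, adjusted p = 0.271). Its close relative HB-12 was lower on both dry arrays, at 6.57 and 6.08 against 7.37, 7.06 and 6.98 (-0.81 ± 0.42, adjusted p = 0.482). RAB18, a dehydrin, read 5.63 and 7.49 on the dry arrays and 5.44, 4.88 and 5.12 on the wet arrays (1.41 ± 0.68, adjusted p = 0.436), with the lower dry array 0.19 above the highest wet one. The dehydrin gene LTI30 read 9.29 and 9.79 on the dry arrays and 8.72, 8.19 and 8.29 on the wet arrays (1.14 ± 0.63, adjusted p = 0.532). COR15A, which protects chloroplast membranes, read 8.35 and 8.36 on the dry arrays and 7.51, 7.92 and 5.97 on the wet arrays (1.22 ± 0.85, adjusted p = 0.662). The regulator DREB2A read 10.18 and 10.82 on the dry arrays and 9.92, 9.22 and 9.61 on the wet arrays (0.92 ± 0.44, adjusted p = 0.436). RD29A read 8.70 and 9.70 on the dry arrays and 9.45, 8.21 and 8.57 on the wet arrays (0.46 ± 0.76, adjusted p = 0.905), with the groups overlapping. RD29B read 4.68 and 4.76 on the dry arrays and 4.84, 4.72 and 4.80 on the wet arrays (-0.07 ± 0.15, adjusted p = 0.934), a difference within the spread. ABF4, an abscisic acid-response transcription factor, read 5.84 and 5.89 on the dry arrays and 6.78, 6.34 and 6.66 on the wet arrays (-0.73 ± 0.37, adjusted p = 0.469), with both dry arrays lowest.

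No starch gene was called, although many were higher on both dry arrays. Of 34 measured genes 18 had both dry arrays above all wet arrays (52.9%, against 15.3% of all loci) and 1 had both below (2.94%, against 14%). An unadjusted p under 0.05 was reached by 12, against 11.1% of all loci. The median change was 0.49 for the 16 genes of synthesis and 0.55 for the 18 genes of breakdown, against 0.0022 over all loci. It was 0.61 and 0.49 in the other 6 accessions. APL3, a large subunit of the enzyme that makes ADP-glucose, read 8.35 and 6.59 on the dry arrays and 4.75, 5.25 and 4.57 on the wet arrays (2.62 ± 1.08, adjusted p = 0.324), with the dry arrays far apart. SBE2.1, a starch branching enzyme, read 9.24 and 9.06 on the dry arrays and 8.05, 8.41 and 7.69 on the wet arrays (1.1 ± 0.36, adjusted p = 0.177). GPT2, which brings glucose 6-phosphate into plastids and is not in these lists, read 10.10 and 8.68 on the dry arrays and 6.18, 6.05 and 6.32 on the wet arrays (3.21 ± 1.42, adjusted p = 0.368). Both dry arrays were the highest for all 3 genes. SEX4, a phosphatase of starch breakdown, read 10.38 and 9.75 on the dry arrays and 8.32, 8.80 and 8.08 on the wet arrays (1.66 ± 0.62, adjusted p = 0.255). The glucan phosphorylase PHS2 read 11.06 and 10.65 on the dry arrays and 9.79, 10.05 and 9.63 on the wet arrays (1.03 ± 0.42, adjusted p = 0.306). PGI1 was the exception, a step of synthesis whose dry arrays were lowest, at 8.10 and 8.27 against 8.46, 8.33 and 8.36 (-0.20 ± 0.17, adjusted p = 0.75). In the list of sucrose metabolism and sugar transport, which does not hold ATSPS4F, 0 of 29 were called (2 at an unadjusted p under 0.05), with 1 higher and 6 lower without overlap. The cell wall invertase CWINV1 read 6.74 and 6.37 on the dry arrays and 8.09, 7.07 and 9.13 on the wet arrays (-1.54 ± 0.78, adjusted p = 0.47).

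No photosynthesis gene was called. Of the 33 measured, 0 passed limma's adjusted threshold, 0 had an unadjusted p under 0.05, 3 were higher and 4 lower without overlap. Their median change was -0.02 in Ag-0 and 0.22 in the other 6 accessions, where 12 of the same genes rose. GLDP1, of the photorespiratory glycine decarboxylase, read 10.20 and 10.77 on the dry arrays and 9.55, 9.05 and 9.90 on the wet arrays (0.98 ± 0.53, adjusted p = 0.519). In the chlorophyll list, 1 of 11 rose: GLK1, a transcription factor that drives chloroplast genes, read 10.23 and 10.70 on the dry arrays and 9.15, 9.34 and 9.11 on the wet arrays and changed by 1.26 ± 0.24, adjusted p = 0.0151. Its dry arrays were the highest by 0.89. For GLK2, its paralog, the groups overlapped (8.48 and 9.42 against 8.72, 8.33 and 8.67). The median of the chlorophyll list was 0.02 in Ag-0 and 0.45 in the other 6.

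**Figure D2:**
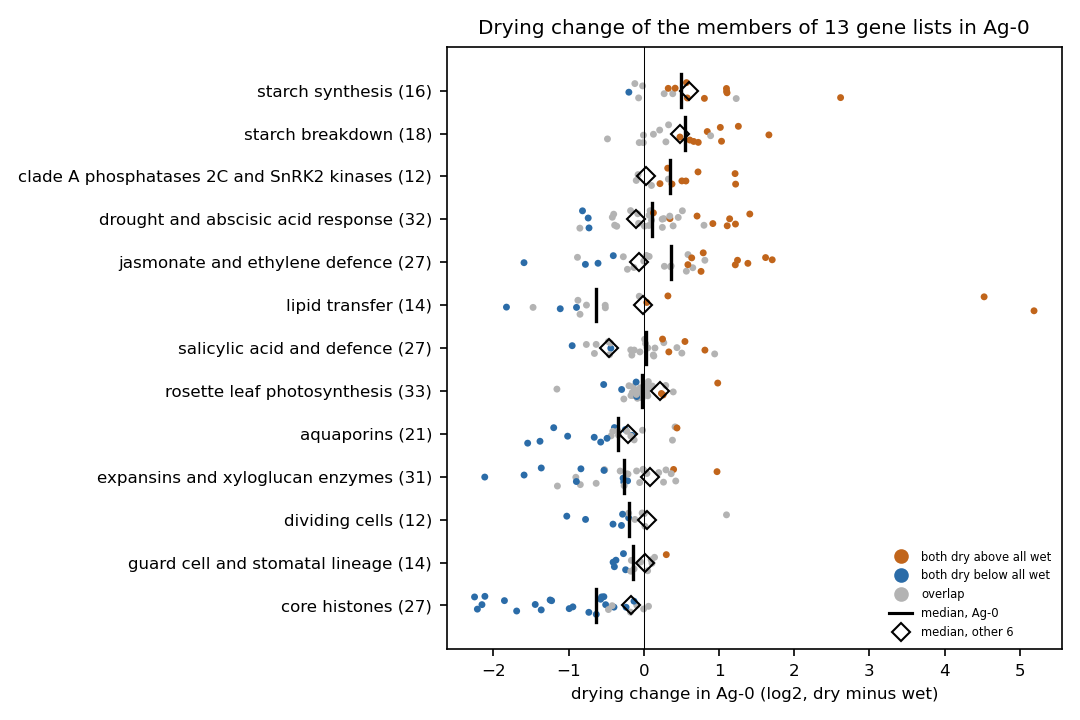
Drying change in Ag-0 (horizontal axis, log2, dry minus wet) of the measured members of gene lists (rows, number of members in brackets). Orange and blue points are members with both dry arrays above or below all wet arrays, grey points overlap, bars are list medians in Ag-0 and diamonds the medians in the other 6 accessions. Medians run from -0.64 for lipid transfer and -0.63 for core histones to 0.55 for starch breakdown.

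The largest called fall was that of AT3G16670, which has no symbol in the gene table and read 9.78, 10.75 and 10.53 on the wet arrays and 5.96 and 6.13 on the dry arrays, a change of -4.30 ± 0.95, adjusted p = 0.0336. MEE3, a small MYB-like factor of the RADIALIS-LIKE family, read 10.76, 10.69 and 10.77 on the wet arrays and 7.46 and 7.12 on the dry arrays and changed by -3.45 ± 0.78, adjusted p = 0.0387. PRA1.F1, a prenylated Rab acceptor of the secretory pathway, read 8.80, 9.03 and 7.68 on the wet arrays and 5.66 and 5.51 on the dry arrays (-2.92 ± 0.63, adjusted p = 0.0326). In each of the 3 the highest dry array lay at least 2.01 below the lowest wet one. LNG1, which promotes lengthwise growth of leaf cells, read 7.47, 7.05 and 6.71 on the wet arrays and 5.85 and 5.37 on the dry arrays (-1.46 ± 0.32, adjusted p = 0.0336). FLA12, a fasciclin-like arabinogalactan protein of cell walls, read 6.51, 7.07 and 7.02 on the wet arrays and 5.41 and 5.12 on the dry arrays (-1.60 ± 0.32, adjusted p = 0.0205). BGLU33, a beta-glucosidase, read 6.52, 6.47 and 6.81 on the wet arrays and 4.93 and 4.93 on the dry arrays (-1.67 ± 0.36, adjusted p = 0.0326), with dry arrays equal to 2 decimals. Others of the 15 largest falls with a name in the gene table were AT4G25830 (CASP-like protein 2C1, -1.60 ± 0.32, adjusted p = 0.0221) and AT4G30410 (IBL1, of the IBH1-like factors, -1.35 ± 0.28, adjusted p = 0.0252). AT1G67750 (-2.68 ± 0.49, adjusted p = 0.0121), AT5G42680 (-1.84 ± 0.32, adjusted p = 0.00867), AT2G28410 (-1.73 ± 0.36, adjusted p = 0.0264) and AT1G69080 (-1.55 ± 0.31, adjusted p = 0.0221) have none. SEOR1, which forms the protein filaments of sieve elements, fell by a small amount (-0.45 ± 0.10, adjusted p = 0.0336), from 5.50, 5.30 and 5.58 on the wet arrays and 4.94 and 5.07 on the dry arrays. It was the 1 called member of 7 phloem markers, whose median change was -0.04.

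Some loci with wide gaps between the groups were not called. ASN1, a glutamine-dependent asparagine synthetase induced by darkness and low sugar, read 10.63, 7.99 and 10.07 on the wet arrays and 4.41 and 5.93 on the dry arrays, the lowest change in the table at -4.39 ± 1.74, adjusted p = 0.29. GER3, a germin-like protein, read 11.33, 11.67 and 10.38 on the wet arrays and 8.53 and 8.07 on the dry arrays (-2.83 ± 1.44, adjusted p = 0.476). The uclacyanin UCC2 read 9.05, 9.33 and 7.54 on the wet arrays and 5.81 and 5.83 on the dry arrays (-2.82 ± 0.74, adjusted p = 0.071). In all 3 the groups were at least 1.71 units apart. The other loci of that kind, AT1G72060 (-3.33 ± 0.95, adjusted p = 0.11), AT3G05730 (-2.68 ± 0.71, adjusted p = 0.0778), AT2G14900 (-3.32 ± 0.89, adjusted p = 0.0834) and AT3G12710 (-2.25 ± 0.56, adjusted p = 0.0611), have no symbol. On the rising side AT5G18840 (2.69 ± 1.05, adjusted p = 0.282) and DI21, a drought-induced gene (2.13 ± 0.94, adjusted p = 0.369), joined GPT2 and AT4G33550.

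Water channel and wall-loosening genes were more often lower than higher on both dry arrays, and none was called. Of 21 aquaporins 0 were called (7 at an unadjusted p under 0.05). Both dry arrays were below all wet arrays for 10 (47.6%, against 14% of all loci) and above for 1 (4.76%, against 15.3%). The median change was -0.34 (-0.20 in the other 6 accessions). GAMMA-TIP, a vacuolar channel, read 10.29, 10.03 and 10.11 on the wet arrays and 8.98 and 8.21 on the dry arrays (-1.54 ± 0.40, adjusted p = 0.0656). DELTA-TIP, another tonoplast channel, read 12.61, 12.44 and 12.10 on the wet arrays and 11.03 and 10.98 on the dry arrays (-1.38 ± 0.67, adjusted p = 0.445). The plasma membrane channel PIP1B read 11.32, 11.11 and 11.09 on the wet arrays and 10.61 and 10.60 on the dry arrays (-0.57 ± 0.22, adjusted p = 0.274). These 3 were lowest on both dry arrays, whereas SIP1A was higher on both (10.02 and 9.95 against 9.49, 9.56 and 9.59, a change of 0.44 ± 0.17, adjusted p = 0.29). Of 31 expansins and xyloglucan enzymes 0 were called (4 at an unadjusted p under 0.05). Without overlap 9 were lower (29%, against 14% of all loci) and 2 higher (6.45%, against 15.3%). Their median change was -0.26, against 0.09 in the other 6. XTH8 read 9.99, 9.89 and 8.76 on the wet arrays and 7.97 and 6.90 on the dry arrays (-2.11 ± 0.93, adjusted p = 0.368). XTH16 read 7.88, 7.99 and 6.45 on the wet arrays and 6.35 and 5.35 on the dry arrays (-1.59 ± 0.67, adjusted p = 0.337). XTH30 read 7.12, 6.64 and 7.38 on the wet arrays and 6.18 and 6.11 on the dry arrays (-0.90 ± 0.37, adjusted p = 0.318). The XTH enzymes cut and rejoin wall xyloglucan, and all 3 genes were lowest on the dry arrays.

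Core histone genes were lower on both dry arrays at most loci. This list was drawn up from names in the gene table after 3 histone genes had been seen among the largest falls, so its counts are a description. It holds only loci that the table names as histones and may leave out others. Of 27 measured loci, 4 fell and 0 rose. Both dry arrays were below all wet ones for 21 (77.8%, against 14% of all loci) and above for 0 (against 15.3%). The median change was -0.63, against -0.16 in the other 6 accessions and 0.0022 over all loci. HTA13, an H2A gene, read 8.68, 9.23 and 8.46 on the wet arrays and 7.57 and 6.31 on the dry arrays (-1.85 ± 0.41, adjusted p = 0.0355). HIS4, an H4 gene, read 6.70, 7.07 and 6.61 on the wet arrays and 5.90 and 4.81 on the dry arrays (-1.44 ± 0.31, adjusted p = 0.0326). AT5G10400, an H3.1 gene, read 6.03, 6.30 and 5.15 on the wet arrays and 4.69 and 4.23 on the dry arrays (-1.36 ± 0.25, adjusted p = 0.00948). The H2B gene HTB11 read 8.16, 8.13 and 7.69 on the wet arrays and 6.84 and 6.66 on the dry arrays (-1.24 ± 0.25, adjusted p = 0.0221). Dry replicate 3 was the lowest array for all 4. Among histone loci that were not called, AT1G09200, of the H3.1 class, read 8.32, 8.55 and 7.72 on the wet arrays and 6.52 and 5.38 on the dry arrays (-2.25 ± 0.61, adjusted p = 0.0856). HTA11, an H2A.Z variant, read 7.93, 6.71 and 5.94 on the wet arrays and 4.76 and 4.54 on the dry arrays (-2.21 ± 0.57, adjusted p = 0.0637). The H3.1 genes are nearly identical in sequence, so signals may be shared between them. MGH3, an H3 of male gametes, was at the low end of the table on all 5 arrays (4.15 and 4.11 against 4.17, 4.15 and 4.08).

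Markers of dividing cells were measured at 12 loci, and 0 were called (2 at an unadjusted p under 0.05). Both dry arrays were below all wet arrays for 6 (50%, against 14% of all loci) and above for 0 (against 15.3%). The mean level of these markers lay between 5.25 and 5.28 on the dry arrays and between 5.35 and 5.50 on the wet arrays. SYP111, the syntaxin of the cell plate, read 5.60, 5.83 and 5.50 on the wet arrays and 5.02 and 4.73 on the dry arrays (-0.77 ± 0.23, adjusted p = 0.115). The mitotic cyclin CYCA1;1 read 5.34, 5.43 and 5.38 on the wet arrays and 5.12 and 4.82 on the dry arrays (-0.41 ± 0.14, adjusted p = 0.22). PCNA1, the sliding clamp of DNA replication, read 7.01, 7.13 and 6.49 on the wet arrays and 6.41 and 5.30 on the dry arrays (-1.02 ± 0.54, adjusted p = 0.497). CYCD3;1, a cyclin of cell cycle entry, was highest on dry replicate 3 (7.16 and 8.81 against 7.27, 5.99 and 7.40, a change of 1.1 ± 0.68, adjusted p = 0.593). In the list of guard cells and the stomatal lineage (14 measured, 0 called, 3 at an unadjusted p under 0.05, 5 lower and 1 higher without overlap), the 5 lower were FAMA, EPF2, SPCH, TMM and EPF1 and the higher was the guard cell channel gene GORK. FAMA read 6.37, 6.29 and 6.54 on the wet arrays and 6.08 and 5.94 on the dry arrays (-0.39 ± 0.12, adjusted p = 0.141). TMM read 4.83, 4.84 and 4.73 on the wet arrays and 4.39 and 4.40 on the dry arrays (-0.41 ± 0.20, adjusted p = 0.456), with the dry arrays at the low end of the table. SPCH read 4.21, 4.03 and 4.12 on the wet arrays and 3.84 and 3.86 on the dry arrays (-0.27 ± 0.12, adjusted p = 0.345), at the low end on all 5 arrays. FAMA and SPCH are transcription factors and TMM is a receptor of that lineage. For KAT1, a potassium channel of mature guard cells, the groups overlapped (4.34 and 4.88 against 4.79, 4.09 and 4.52). The part of dividing or young cells in the fall of the histone genes was not tested.

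**Figure D3:**
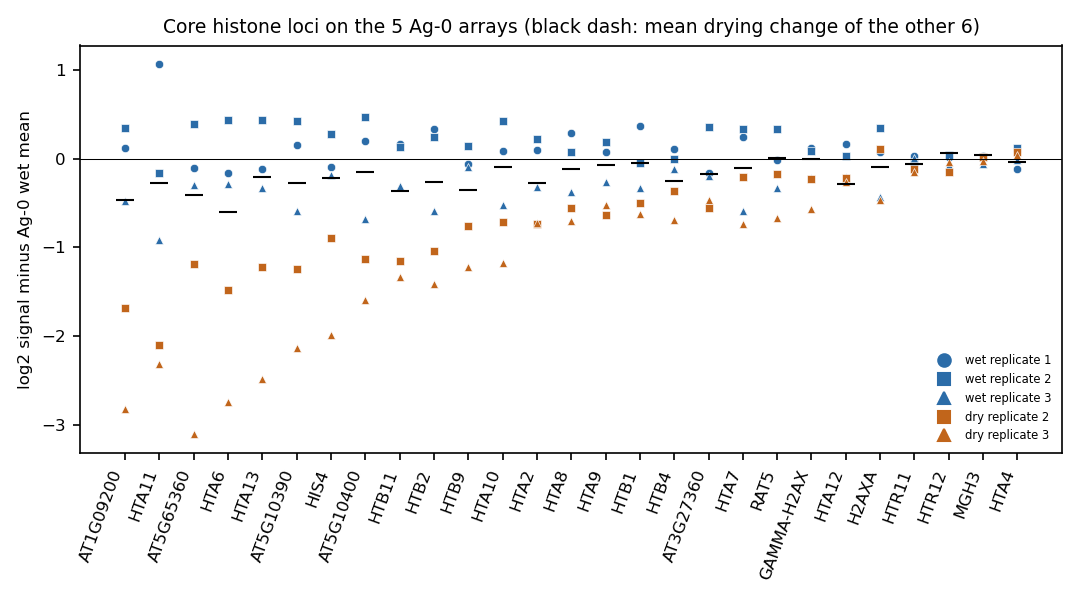
Log2 signal of 27 core histone loci minus the mean of the 3 wet Ag-0 arrays (vertical axis), for each of the 5 Ag-0 arrays (blue wet, orange dry), ordered by change; the black dash is the mean drying change of the other 6 accessions. Both dry arrays lie below all 3 wet arrays at 21 loci, and dry replicate 3 reaches the lowest value, at AT5G65360.

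No jasmonate gene was called, and the 2 dry arrays read these genes differently. Of 27 jasmonate and ethylene defence genes 0 were called and 5 had an unadjusted p under 0.05. Without overlap 9 were higher (33.3%, against 15.3% of all loci) and 4 lower (14.8%, against 14%). The median of dry replicate 3 minus the wet mean was 0.65 while that of dry replicate 2 was 0.06. LOX3, a lipoxygenase of jasmonate synthesis, read 9.36 and 10.92 on the dry arrays and 9.10, 7.29 and 9.16 on the wet arrays (1.62 ± 0.74, adjusted p = 0.392). The repressor gene JAZ7 read 8.06 and 8.79 on the dry arrays and 7.15, 6.73 and 6.28 on the wet arrays (1.71 ± 0.95, adjusted p = 0.538). ORA59, an activator of defensin genes, was lower on both dry arrays (7.72 and 6.17 against 8.35, 8.76 and 8.51, a change of -1.59 ± 0.58, adjusted p = 0.243). Its target PDF1.2 was at the low end of the table on all 5 arrays, with overlapping groups (3.85 and 4.31 against 4.29, 4.1 and 4.25). The lowest value in the table was 3.35, which leaves little room for a measured fall of PDF1.2. Its mean change in the other 6 accessions was -3.39 ± 0.64.

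Salicylic acid genes had a median change of 0.02 in Ag-0 and of -0.46 in the other 6 accessions, where 14 of the 27 fell (against 11.4% of all loci). The Ag-0 median was 0.19 for dry replicate 2 and -0.29 for dry replicate 3, each against the wet mean, so its sign differed between the dry arrays. In Ag-0, 0 of the 27 were called (0 at an unadjusted p under 0.05). Without overlap 4 were higher (14.8%, against 15.3% of all loci) and 2 lower (7.41%, against 14%). PR1, the standard marker of that pathway, read 11.04 and 7.55 on the dry arrays and 8.25, 11.55 and 9.42 on the wet arrays (-0.44 ± 1.2, adjusted p = 0.951). The highest arrays were wet replicate 2 and dry replicate 2, and the groups overlapped. PAD3, the last step of camalexin synthesis, read 6.01 and 5.67 on the dry arrays and 4.66, 4.84 and 5.59 on the wet arrays (0.81 ± 0.93, adjusted p = 0.843), with both dry arrays highest, against a mean change of -2.18 ± 0.34 in the other 6. The difference of the PAD3 changes, 3.00 ± 0.99, had an unadjusted p of 0.00502 and an adjusted p of 0.403. With a lowest table value of 3.35, the Ag-0 wet levels of PAD3 left little room for a fall of that size. The senescence list also differed in median, -0.07 in Ag-0 and -0.49 in the other 6, without a call in Ag-0. SAG12, a protease of late senescence, was at the low end on all 5 arrays (3.87 and 4.1 against 3.87, 3.86 and 3.92).

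The drying change of Ag-0 was next set beside that of the other 6 accessions, which share no array with it. The loci called in Ag-0 were chosen by the difference among Ag-0 arrays, with a spread estimated over all 41. Of the 45 rises, 44 had a higher dry mean in the average of the other 6 accessions and 32 rose there at the adjusted threshold. Of the 44 falls, 43 were lower there and 27 fell. Together 97.8% kept the sign, against 61.1% of all loci. In all 66.3% were called in the same direction, against 17.5% of all loci, and 0 were called in the opposite direction. Both calls use the same spread of a locus, so a locus of small spread passes more easily in both. The 17.5% is therefore not a like share. For this average 11.4% of loci rose and 11.4% fell, 4814 in all (22.7%). The sign was the same in every one of the other 6 accessions for 31 of the 45 rises and 20 of the 44 falls, 57.3% together against 17.3% of all loci. All 89 had a larger change, sign aside, in Ag-0 than in the mean of the other 6. Median changes were 1.07 in Ag-0 and 0.41 in the others for the rises, and -1.02 and -0.23 for the falls. The part of the choice by Ag-0 values in these distances was not tested. Over all loci the 2 changes correlated at r = 0.48, a description across loci that were read on the same arrays.

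Loci were also chosen by the other 6 accessions. Of the 56 loci that rose by at least 1 in the mean of the other 6, 53 were higher in Ag-0, 44 without overlap. The median changes were 1.09 in Ag-0 and 1.19 in the others. Of the 142 that fell by at least 1, 118 were lower in Ag-0, 63 without overlap, with medians of -0.60 and -1.23. The part of that choice in the distance between these medians was not tested. Of the 142, 24 were higher in Ag-0, and 4 of the 142 were so without overlap, against 15.3% of all loci. These were PAD3, CYP71A13, another gene of camalexin synthesis (4.55 and 4.55 against 4.29, 4.25 and 4.36), AT2G41380 (6.18 and 6.23 against 5.75, 5.33 and 4.80) and AT3G22600 (6.95 and 6.77 against 6.29, 6.21 and 6.50). The wet values of CYP71A13 were at the low end of the table, which leaves little room for a measured fall, as for PAD3. Others of the 24 were SAG13 (7.68 and 6.24 against 5.35, 6.72 and 6.15), DLO1, a salicylic acid hydroxylase (7.35 and 4.82 against 4.63, 6.15 and 6.17), and the glutathione transferase GSTU4 (6.50 and 5.11 against 4.69, 6.28 and 5.60). In SAG13, DLO1 and GSTU4 the Ag-0 groups overlapped, and dry replicate 2 was the highest array.

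**Figure D4:**
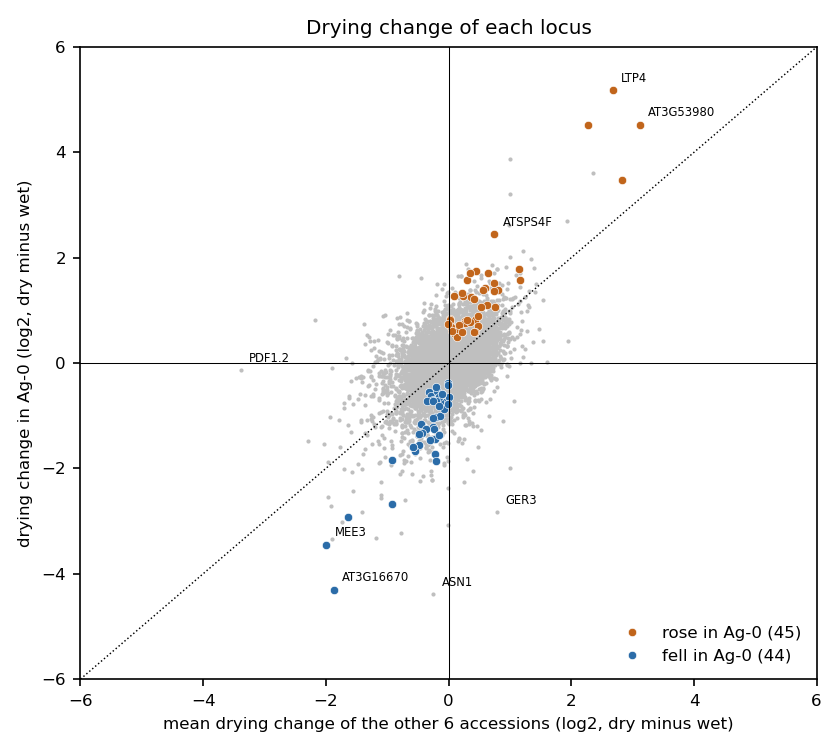
Drying change of each locus in Ag-0 (vertical axis, log2, 2 dry and 3 wet arrays) against its mean change in the other 6 accessions (horizontal axis, 18 dry and 18 wet arrays). Grey points are all 21164 loci, orange and blue the 45 that rose and the 44 that fell in Ag-0, and the dotted line marks equal changes; 87 of the 89 have the same sign on both axes.

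The difference itself was tested as the Ag-0 change minus the mean change of the other 6. By limma 0 loci were higher (0.00% of 21164) and 1 was lower (0.00473%) at the adjusted threshold, and 1646 (7.78%) had an unadjusted p under 0.05. The 1 locus, AT5G25570, has no symbol in the gene table. It read 5.38, 4.87 and 4.66 on the wet arrays and 4.29 and 4.1 on the dry arrays, a change of -0.78 ± 0.12, adjusted p = 0.00723, while its mean change in the other 6 accessions was -0.01 ± 0.04. The difference was -0.77 ± 0.13 (adjusted p = 0.0443). The dry values lay at the low end of the table, and the locus was not among those tested when the lowest 25% of loci were left out. The call was lost without dry replicate 3, wet replicate 1 or Got-22, and also with quantile normalization (adjusted p = 0.0784), with array quality weights (0.0536) and without the low-weight arrays (0.0773). The difference stayed between -0.92 and -0.56 over all settings run. Without wet replicate 2, wet replicate 3 or dry replicate 2 the counts higher and lower became 3 and 3, 1 and 4, and 7 and 3.

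The loci closest to the threshold in each direction were not called. Higher in Ag-0 were AT5G66080 (difference 1.37 ± 0.29, adjusted p = 0.181), the rhomboid-like gene RBL15 (0.81 ± 0.15, adjusted p = 0.0582) and RR10, a type-B response regulator of cytokinin signalling (1.06 ± 0.23, adjusted p = 0.181). RBL15 read 7.15 and 7.39 on the dry arrays and 6.70, 6.81 and 6.64 on the wet arrays, against a mean change of -0.25 in the other 6. RR10 read 6.97 and 7.01 on the dry arrays and 6.21, 6.24 and 5.98 on the wet arrays, against a mean change of -0.22. In both genes the 2 dry arrays of Ag-0 were the highest while the mean of the other accessions fell at the adjusted threshold. OBF5, the bZIP factor TGA5, had a difference of 0.96 ± 0.18 (adjusted p = 0.0723), and AT4G31860 one of 1.22 ± 0.24 (adjusted p = 0.098). Lower in Ag-0 were AT3G53730 (-1.01 ± 0.22, adjusted p = 0.181), the H3.1 gene AT5G10400 (-1.21 ± 0.26, adjusted p = 0.181), AT1G63110 (-0.66 ± 0.14, adjusted p = 0.181) and SAMBA, a regulator of the anaphase-promoting complex (-1.08 ± 0.23, adjusted p = 0.181). SAMBA read 6.05, 6.25 and 6.27 on the wet arrays and 5.46 and 5.18 on the dry arrays, with both dry arrays lowest, and its mean change in the other 6 was 0.21. The difference had an unadjusted p under 0.05 at 7.78% of all loci. In the salicylic acid list this held at 5 of 27, in the senescence list at 4 of 16 and in the starch lists at 0 of 34. It held at 5 of 14 for the stomatal lineage and 3 of 7 for the phloem markers, but also at 2 of 5 flower markers, all at the low end. The same was so at 3 of 12 markers of dividing cells, 3 of 14 lipid transfer genes, 3 of 12 clade A phosphatases 2C and SnRK2 kinases and 0 of 33 photosynthesis genes. For the core histones, a list drawn up after values were seen, it held at 14 of 27. In each of these lists 0 were called.

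The 2 dry arrays did not read alike. Against the wet mean, dry replicate 2 differed by more than 1 unit at 635 loci and dry replicate 3 at 762, and of the 89 called loci 61 changed more on dry replicate 3. PR1 was the widest case in one direction, at 11.04 on dry replicate 2 and 7.55 on dry replicate 3, and PR2 and PR5, other salicylic acid-induced genes, had the same order. PR2 read 11.65 and 9.62 against 9.85, 11.35 and 10.57 and PR5 read 9.73 and 7.58 against 7.97, 9.84 and 9.52. In the other direction BXL1, a beta-xylosidase of cell walls, read 4.96 and 8.64 against 9.81, 7.16 and 8.34. SEN1, a gene induced by darkness and senescence, read 5.52 and 9.05 against 11.49, 7.65 and 10.24. Wet replicate 2 stood nearer to dry replicate 2 in these, highest of the wet arrays in PR1, PR2 and PR5 and lowest in BXL1 and SEN1. CA1, the chloroplast carbonic anhydrase, read 8.23 and 10.69 against 10.97, 9.58 and 11.29. AAP2, an amino acid permease, read 7.69 and 10.14 against 9.66, 7.40 and 8.92, again with both replicate 2 arrays lowest in their group. These loci were picked for that difference after their values were seen. FSD1, an iron superoxide dismutase, split the wet arrays instead: it read 9.42 and 10.63 on the dry arrays and 8.46, 4.87 and 5.10 on the wet arrays, and its change of 3.88 ± 1.63 had an adjusted p of 0.333.

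**Figure D5:**
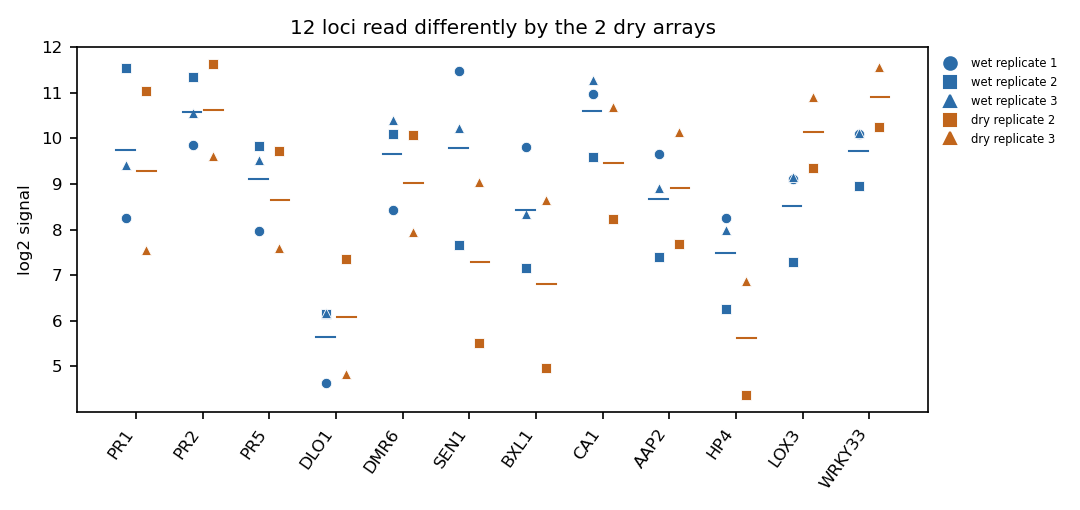
Log2 signal (vertical axis) of 12 loci read differently by the 2 dry arrays, on the 5 Ag-0 arrays; blue symbols are wet, orange dry, and squares mark replicate 2 of both groups. PR1 reads 11.55 on wet replicate 2 and 11.04 on dry replicate 2 but 7.55 on dry replicate 3, and BXL1 is lowest on the replicate 2 arrays of each group.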

How the data were processed

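Log2 signals per locus, as the authors deposited them in the table of processed values, were used with no further normalization. RMA and MAS5 are named per the submitters' processing notes, without roles; probe filter and genome build were not given in the sources used here. The log2 unit was read from the values (3.35 to 14.30). Symbols came from a RefSeq table (TAIR10.1), which held 20972 of 21164 loci.

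Limma 3.58.1 in R 4.3.3 fitted 14 group means over all 41 arrays (27 residual degrees of freedom), so the other 6 accessions inform the spread of Ag-0. P-values were two-sided, adjusted by Benjamini-Hochberg over all loci at 0.05. The fit was tested on simulated data. Named loci were the 15 largest called rises and falls, the 10 widest gaps each way, the 5 smallest p each way against the other 6, up to 4 of smallest p per list, and a few set names; other names were chosen after their values were seen. Members and the 34 lists (602 measured loci, 19 entries dropped for want of a matching symbol) were chosen with earlier results of these data known; the histone list came later. Precision is limited by the number of arrays. No column belonged to another sample.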

Additional observations from a re-analysis of the deposited data

Results flagged for a closer look

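AT5G25570 stood out because its drying change differed between Ag-0 and the mean of the other 6 accessions by the test of the difference itself, at -0.7674 on the log2 scale (SE 0.13, limma adjusted p = 0.0443). The change was -0.03 in Bil-5, -0.03 in Eden-1, 0.02 in Got-22, 0.12 in Omo2-3, -0.07 in Tamm-2 and -0.06 in Ull2-5, against -0.78 in Ag-0. The call was lost with quantile normalization, with array quality weights, under the replicate block, without the low-weight arrays, without Got-22, and without dry replicate 3 or wet replicate 1. No Ag-0 group had the 4 or more arrays that a check for single outlying arrays needs.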

How the results depend on the processing

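The counts of loci that rose and fell in Ag-0, 45 and 44, moved most with the arrays used. They were 129 and 126 with array quality weights, 160 and 143 without the 3 arrays of weight under 0.5, 1 and 1 with the Ag-0 arrays alone (3 residual degrees of freedom) and 0 and 0 with those alone and the replicate number as a block, where 3663 loci still had an unadjusted p under 0.05. Leaving out 1 Ag-0 array gave 0 to 34 rises and 0 to 37 falls, and the lone dry array left was then assumed to vary like the other groups. All 89 called loci were shared with the settings with quality weights and without low-weight arrays. Quantile normalization (50 and 57, 85 shared), median centring (48 and 50, 85 shared), removal of the lowest 25% of loci (53 and 51) and a trended robust prior (39 and 47, 74 shared) stayed within 1.5 times. Against the other 6, the counts higher and lower were 0 and 0 with quantile normalization, without the lowest 25% of loci (AT5G25570 among them), with quality weights, without the low-weight arrays and without Got-22, 0 and 1 with median centring, 3 and 1 without Bil-5 or Eden-1, and 1 and 1 without Omo2-3; leaving out 1 Ag-0 array gave 0 to 7 and 0 to 4. Over the settings run, 892 to 2176 loci had an unadjusted p under 0.05 in that comparison. The cause of the other moves was not tested.

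Ag-0 replicate numbers do not pair the samples by any label. Deviations from the group means of dry and wet arrays of the same number correlated at 0.53 (replicate 2) and 0.17 (replicate 3), but the deviations of 2 dry arrays mirror each other, so these values are no test of pairing. With the replicate block over all arrays the counts were 49 and 52 (80 shared) for drying and 0 and 0 against the other 6. LTP4 (adjusted p = 0.0501), NRAMP1 (0.0552) and AT1G04350 (0.0552) lost their call under the block, as did AT5G25570 against the other 6 (0.0546). Non-overlap counts, recomputed after the data were seen, were 3288 above and 2982 below with quantile normalization and 2828 and 3400 with median centring; the histone, dividing-cell and starch counts did not change under either, and the salicylic acid count below went from 2 to 4 under both. None of the 66 named loci followed across settings changed sign with a call.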

Other observations

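Gene groups not described so far had 0 calls in Ag-0 by limma at the adjusted threshold. Over all loci, both dry arrays lay above all wet arrays at 15.3% and below at 14%, and 11.1% had an unadjusted p under 0.05. Many of the counts here lie near these shares. Members whose 2 dry arrays lay above or below all 3 wet arrays were counted without a test. Of 19 gibberellin genes these were 4 above and 6 below (median -0.11, 4 at an unadjusted p under 0.05), of 20 auxin genes 1 above and 3 below (median -0.08, 0 at an unadjusted p under 0.05) and of 25 cytokinin genes 3 above and 3 below (median -0.07, 2 at an unadjusted p under 0.05). Of 23 wax and cutin genes there were 2 above and 6 below (median -0.18, 4 at an unadjusted p under 0.05), and of 20 flavonoid genes 2 above and 4 below (median 0.005, 1 at an unadjusted p under 0.05). Among 17 clock genes there were 5 above and 3 below (median 0.06, 2 at an unadjusted p under 0.05), and among 9 cold-response genes 2 above and 0 below (median 0.29, 1 at an unadjusted p under 0.05). The 18 ethylene and touch genes had 6 above and 4 below (median 0.17, 7 at an unadjusted p under 0.05), and the 12 heat shock genes 1 above and 2 below (median -0.01, 2 at an unadjusted p under 0.05). Aliphatic glucosinolate genes (15) had 3 above and 0 below (median 0.22, 0 at an unadjusted p under 0.05), indole glucosinolate genes (10) 0 above and 0 below (median 0.11, 0 at an unadjusted p under 0.05), redox genes (18) 5 above and 4 below (median 0.03, 3 at an unadjusted p under 0.05), genes of mineral nutrition (27) 3 above and 1 below (median 0.02, 2 at an unadjusted p under 0.05) and xylem genes (7) 0 above and 0 below (median -0.03, 0 at an unadjusted p under 0.05).

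A few loci, picked after their values were seen, had changes of opposite sign in Ag-0 and in the mean of the other accessions. PDF1, protodermal factor 1 of the young epidermis, read 9.26, 8.67 and 7.24 on the wet arrays and 6.50 and 6.29 on the dry arrays in Ag-0 (-2.0 ± 0.96, adjusted p = 0.44), with both dry arrays lowest. Its mean change in the other 6 was 1.0 ± 0.35, and the difference had an unadjusted p of 0.00657 and an adjusted p of 0.414. STOMAGEN, a peptide that promotes stomatal development, read 9.17, 8.66 and 8.57 on the wet arrays and 8.29 and 7.86 on the dry arrays, against a mean change of 1.07 in the others (adjusted p of the difference = 0.705). SUC2, the phloem sucrose loader, read 10.07 and 10.46 on the dry arrays and 10.17, 9.55 and 9.86 on the wet arrays, a change of 0.41 ± 0.26, adjusted p = 0.61 with overlapping groups, against -0.44 ± 0.10 in the other 6 (adjusted p of the difference = 0.401).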
